A study of Homo sapiens with 9 samples.

Results

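A set of 8 protein-coding genes whose transcripts were more abundant in SUGP1-edited U-2 OS cells is described here: NOSTRIN, EXOC3L2, LAPTM5, KATNBL1, GRHL3, CEACAM1, IGFL2 and ABHD3. These 8 genes, of 21071 tested genes, were selected by name for higher counts in the crSUGP1 libraries than in the control libraries, so the crSUGP1 differences given for them are a description of that selection and carry no test. U-2 OS is a human osteosarcoma line. The 9 polyA RNA-seq libraries came from 3 independent experiments, each with 1 library per guide. Unmodified cells were transfected with Cas9 mRNA and a single synthetic guide. The guides were NTC, a non-targeting control, crXCR1, which targets the chemokine receptor gene XCR1, and crSUGP1. Per the paper, NTC has no target in the human genome. It describes XCR1 as expressed only in dendritic cells, and cut that gene as a control for the effect of a DNA break alone. All groups shared Cas9 delivery. Each library came from a transfected cell population, not a clone, so a change in the share of expressing cells and a change in RNA per cell cannot be told apart. Library totals ran from 68712738 to 107952835 counts.

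SUGP1 encodes a nuclear protein with SURP and G-patch domains that takes part in pre-mRNA splicing. The 8 genes belong to separate families. NOSTRIN is an F-BAR protein that binds endothelial nitric oxide synthase, EXOC3L2 is related to a subunit of the exocyst vesicle-tethering complex, and LAPTM5 is a lysosomal membrane protein best known from blood cells. KATNBL1 regulates the microtubule-severing enzyme katanin, GRHL3 is a grainyhead transcription factor of surface epithelia, and CEACAM1 is an immunoglobulin-like adhesion receptor. IGFL2 is a small secreted protein of the insulin growth factor-like family, and ABHD3 is a membrane hydrolase that acts on phospholipids.

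The guide is shown because every crSUGP1 library depends on this 1 sequence, with the protospacer-adjacent motif in capitals. It lies on the plus strand at chr19:19297309-19297331 (GRCh38), in exon 8 of SUGP1.
crSUGP1 guide and motif: tacttgtacccttggctattGGG
SUGP1 itself was at 7.36 ± 0.734 counts per 1000000 library counts (CPM, with TMM-scaled library sizes; SD, n = 3) in the crSUGP1 libraries, 29.8 ± 1.31 in NTC and 29.6 ± 1.76 in crXCR1. The libraries of experiment 3 stood apart: against experiments 1 and 2, 10.6% of all tested genes passed both an adjusted p of 0.05 and a log2 difference of 0.5 (edgeR quasi-likelihood test with Benjamini-Hochberg adjustment). Values are therefore given for each experiment, taken as the replicate number in the sample title. Without experiment 3 the median log2 difference of the 8 genes was 0.95 against NTC and 0.63 against crXCR1.

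Levels between genes were compared as CPM per kilobase of annotated exon. In the NTC libraries, CEACAM1 was the lowest at 0.138 ± 0.0283, followed by GRHL3 at 0.219 ± 0.0427, NOSTRIN at 0.276 ± 0.0233 and IGFL2 at 0.363 ± 0.0292 (SD, n = 3). LAPTM5 followed at 0.653 ± 0.0543 and EXOC3L2 at 2.14 ± 0.466. KATNBL1, at 3.4 ± 0.379, and ABHD3, at 3.45 ± 0.129, were highest and did not differ beyond their spread. These last genes were not low-level transcripts, since they stood at the 44.8th and 45.1st percentiles of the 15474 tested coding genes, against 7.6 for CEACAM1 and 10.7 for GRHL3.

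**Figure D1:**
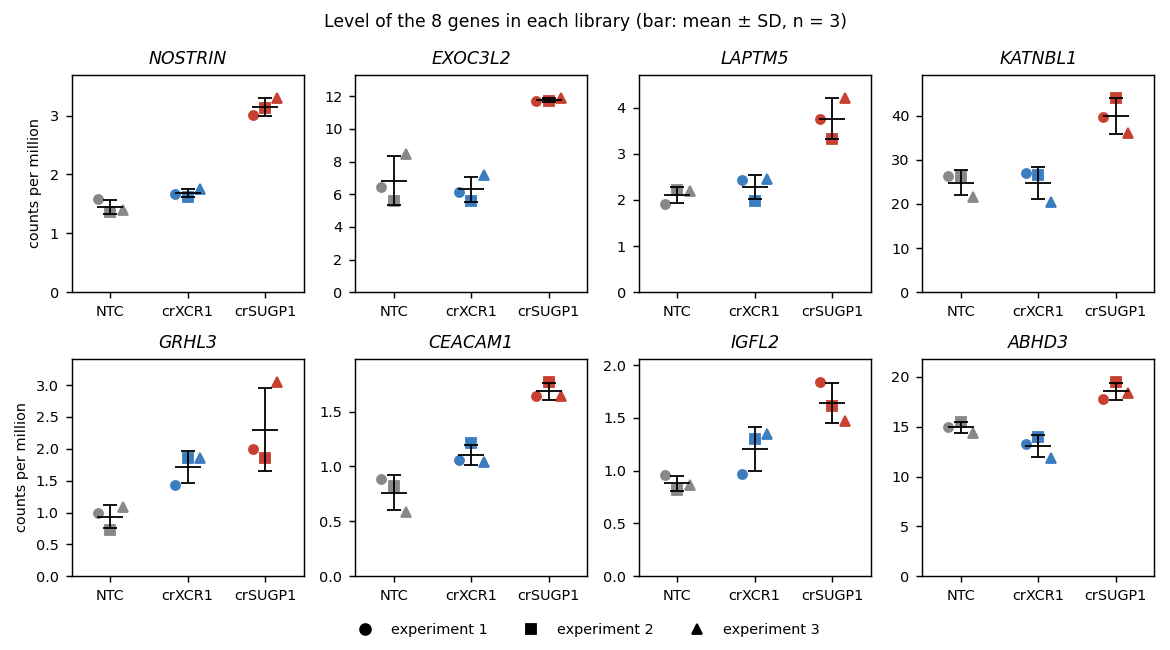
Level of each gene in CPM (vertical axis, from 0) in the 3 NTC, 3 crXCR1 and 3 crSUGP1 libraries. Symbols mark the experiment and black bars the mean ± SD (n = 3). The crSUGP1 libraries of NOSTRIN (3.01 to 3.3 CPM) lie well clear of the controls, whereas those of GRHL3 start at the highest crXCR1 value, 1.86 CPM.

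All 3 crSUGP1 libraries were above all 6 control libraries for each of the 8 genes. Of all tested genes, 6.36% had this arrangement. The median log2 difference over the 8 genes was 0.866 against NTC and 0.654 against crXCR1, beside -0.004 and -0.003 over all tested genes. Every one of the 24 within-experiment ratios was positive against NTC, and so were all 24 against crXCR1. A gene was above NTC in all 3 experiments for 22.9% of tested genes and above crXCR1 in all 3 for 26.5%.

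Among coding genes with an adjusted p of at most 0.05, the values on either side of the 0.5 threshold were 0.47 for UQCC1 and 0.51 for TENT5A against NTC, and 0.49 for ZNF197 and 0.51 for PIR against crXCR1.

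NOSTRIN was at 1.59, 1.37 and 1.39 CPM in NTC experiments 1 to 3 and at 1.67, 1.62 and 1.76 CPM in crXCR1. It was at 3.01, 3.12 and 3.3 CPM in crSUGP1. The crSUGP1 libraries formed a tight group far above both controls. NOSTRIN was higher by log2 1.11 ± 0.104 (SE) against NTC and 0.90 ± 0.103 against crXCR1, and within experiments the fold over crXCR1 stayed between 1.81 and 1.93.

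EXOC3L2 was at 6.42, 5.58 and 8.48 CPM in NTC and 6.15, 5.61 and 7.15 CPM in crXCR1. Its crSUGP1 libraries were nearly level, at 11.7, 11.7 and 11.9 CPM. Experiment 3 was the highest of its group in every case, and its NTC library narrowed the difference. The fold over NTC was 1.82 and 2.1 in experiments 1 and 2 but 1.4 in experiment 3, and the fitted log2 difference was 0.78 ± 0.148 against NTC and 0.90 ± 0.148 against crXCR1 (SE).

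LAPTM5 was at 1.91, 2.21 and 2.2 CPM in NTC and 2.42, 1.98 and 2.45 CPM in crXCR1. In crSUGP1 it was at 3.76, 3.31 and 4.21 CPM. The lowest crSUGP1 library was in experiment 2, and it still lay above every control. LAPTM5 was higher by log2 0.83 ± 0.131 against NTC and 0.71 ± 0.13 against crXCR1 (SE).

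KATNBL1, the gene with the most counts, was at 26.4, 26.4 and 21.6 CPM in NTC and 27, 26.6 and 20.5 CPM in crXCR1. In crSUGP1 it was at 39.6, 44 and 36 CPM. Each group had its lowest library in experiment 3, where the fold was 1.66 over NTC and 1.76 over crXCR1. The fitted log2 difference was 0.68 ± 0.127 against NTC and 0.69 ± 0.127 against crXCR1 (SE), the smallest gap between the controls among the 8 genes.

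GRHL3 was at 0.99, 0.733 and 1.09 CPM in NTC and at 1.43, 1.86 and 1.85 CPM in crXCR1. In crSUGP1 it was at 1.99, 1.86 and 3.05 CPM. Its crXCR1 libraries already lay above all NTC libraries, and in experiment 2 crSUGP1 and crXCR1 were level, with a fold of 1. The log2 difference was 1.28 ± 0.224 against NTC but 0.42 ± 0.215 against crXCR1 (SE), and the latter fell to 0.16 without the crSUGP1 library of experiment 3.

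CEACAM1 was at 0.884, 0.818 and 0.586 CPM in NTC, 1.06, 1.21 and 1.04 CPM in crXCR1 and 1.64, 1.77 and 1.64 CPM in crSUGP1. The 3 groups formed separate steps with no overlap. CEACAM1 was higher by log2 1.15 ± 0.16 against NTC and 0.61 ± 0.155 against crXCR1 (SE). These values rested on 54 to 156 counts per library.

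IGFL2 was at 0.958, 0.818 and 0.868 CPM in NTC, 0.967, 1.3 and 1.35 CPM in crXCR1 and 1.84, 1.61 and 1.47 CPM in crSUGP1. Its fold over crXCR1 was 1.9 in experiment 1, 1.24 in experiment 2 and 1.09 in experiment 3. The log2 difference was 0.90 ± 0.159 against NTC and 0.45 ± 0.155 against crXCR1 (SE), and the second was 0.22 without experiment 1.

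ABHD3 was at 15, 15.5 and 14.4 CPM in NTC, 13.3, 14 and 11.9 CPM in crXCR1 and 17.8, 19.5 and 18.4 CPM in crSUGP1. All crXCR1 libraries lay below all NTC libraries. Its log2 difference was 0.51 ± 0.0788 against crXCR1 and 0.31 ± 0.0786 against NTC (SE), in the opposite order to GRHL3, CEACAM1 and IGFL2.

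**Figure D2:**
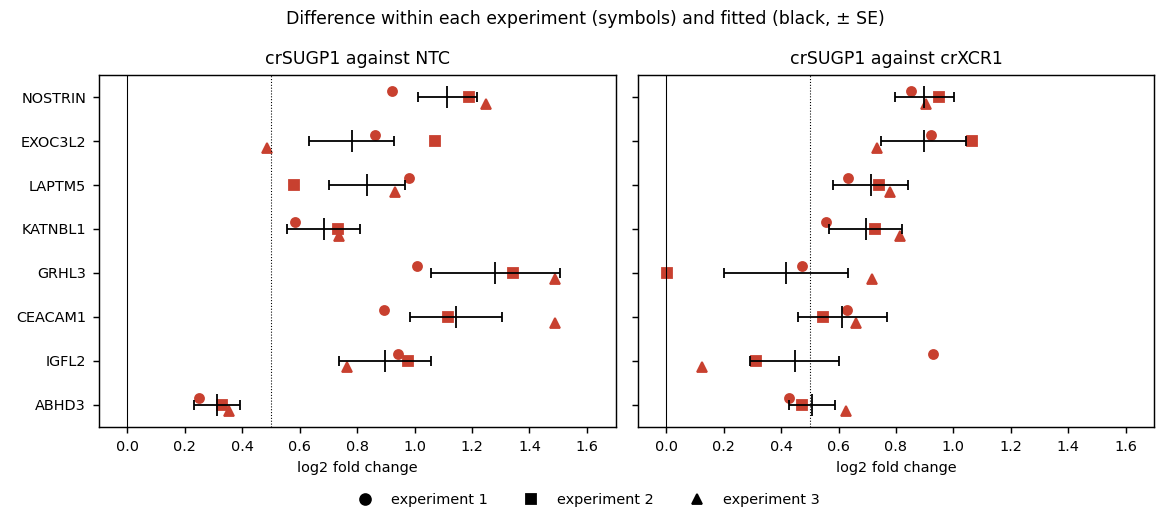
Log2 fold change of each gene in crSUGP1 against NTC (left) and crXCR1 (right). Symbols give the ratio within each experiment, black bars the fitted value ± SE, and the dotted line the 0.5 threshold. GRHL3 in experiment 2 and IGFL2 in experiment 3 sit closest to 0 on the right, and ABHD3 has the smallest values on the left.

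The control groups also differed from each other in some of the 8 genes. The log2 difference of crXCR1 over NTC was 0.86 for GRHL3, 0.53 for CEACAM1, 0.45 for IGFL2 and 0.22 for NOSTRIN, and in each of these 4 genes all crXCR1 libraries were above all NTC libraries, an arrangement found in 2.71% of tested genes. It was -0.20 for ABHD3, -0.12 for EXOC3L2, 0.12 for LAPTM5 and -0.01 for KATNBL1. Both comparisons that chose the genes enter this difference, so it was not tested.

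The contrasts between experiments are balanced over the guides and were tested. A large difference between experiments widens the spread within groups, and genes picked for a group difference tend to lack it. The counts below are therefore not independent of the selection, and with 8 genes they are not read against the background. None of the 8 genes passed both thresholds between experiment 3 and experiments 1 and 2, where 10.6% of tested genes did. None passed between experiments 1 and 2 either, where 0.0332% of tested genes did (edgeR and DESeq2 each called 0 in both). By adjusted p alone, 3 genes differed in experiment 3, as did 46.1% of tested genes (3 at an unadjusted p under 0.05 in each tool). KATNBL1 was lower by log2 -0.30 ± 0.0487 (SE, edgeR adjusted p = 0.00015), EXOC3L2 higher by 0.26 ± 0.0762 (edgeR adjusted p = 0.0107) and GRHL3 higher by 0.40 ± 0.12 (edgeR adjusted p = 0.0124). For experiment 1 against 2, none of the 8 was under an unadjusted p of 0.05, and 0.0664% of tested genes passed by adjusted p alone.

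Genes that overlap these 8 were examined because the strand setting of the counting is not stated, and read pairs from opposite strands then cannot be told apart. Of 12 tabled genes that overlap by the span of either annotation, 8 passed the filter on low counts and 1 passed both thresholds, AL137857.1, in both comparisons (beside 0.783% and 0.774% of all tested genes). This gene shares exon bases with LAPTM5, so its call is not independent of the selection. KATNBL1 had no overlapping gene. No tested overlap with NOSTRIN, EXOC3L2, GRHL3 or IGFL2 involved a shared exon base.

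AL137857.1, a long non-coding RNA at chr1:30731693-30733427 on the plus strand, shares 623 exon bases with LAPTM5, which are 19.3% of the exon length of LAPTM5 and 57.8% of its own. Its counts could thus hold read pairs from LAPTM5, which was selected for its rise, and this was not tested. The p-values below are therefore no independent support for a rise. AL137857.1 was at 0.368, 0.55 and 0.478 CPM in NTC, 0.524, 0.419 and 0.439 CPM in crXCR1 and 0.947, 0.892 and 1.01 CPM in crSUGP1. It was higher in crSUGP1 by log2 1.04 ± 0.174 against NTC (edgeR adjusted p = 0.023) and 1.04 ± 0.173 against crXCR1 (edgeR adjusted p = 0.0247). With the experiment as a block, its edgeR adjusted p was 0.000695 against NTC and 0.000566 against crXCR1. With DESeq2 it was 0.00275 and 0.00207. In the edgeR fit without the block, the calls were lost in 8 of 12 settings that left out 1 library or 1 experiment. Against NTC it was still called without NTC replicate 2, without crXCR1 replicate 1 or 3, or without experiment 3, with the adjusted p from 0.0124 to 0.574 over all 12. Against crXCR1 it was still called without any 1 NTC library or without experiment 3, with a range of 0.0166 to 0.543. The log2 difference stayed between 0.89 and 1.21 against NTC and between 0.95 and 1.14 against crXCR1 over the same settings. Its count was 17.9% to 27% of that of LAPTM5. With its whole count taken off LAPTM5, as an alternative chosen after seeing the data, LAPTM5 was still above every control in each crSUGP1 library, the lowest at 2.42 CPM and the highest control at 2.01 CPM, and its log2 differences were 0.77 against NTC and 0.62 against crXCR1.

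LIPE-AS1 runs antisense across the whole of CEACAM1 and shares 185 exon bases with it. The largest shared stretch, chr19:42521992-42522098 (GRCh38), is 107 bases within a coding exon at chr19:42521924-42522202, printed on the minus strand with the shared bases in capitals, because counts there could come from either gene.
CEACAM1 coding exon: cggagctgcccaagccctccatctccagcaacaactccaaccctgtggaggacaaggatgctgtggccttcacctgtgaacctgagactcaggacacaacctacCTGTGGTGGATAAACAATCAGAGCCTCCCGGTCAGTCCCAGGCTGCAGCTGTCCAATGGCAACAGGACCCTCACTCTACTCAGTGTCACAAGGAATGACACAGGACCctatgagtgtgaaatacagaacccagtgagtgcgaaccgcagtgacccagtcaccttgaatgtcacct
LIPE-AS1 ranged from 2.71 to 3.21 CPM over the 9 libraries and differed by log2 0.10 ± 0.0956 and 0.07 ± 0.0954 (SE, edgeR adjusted p = 0.729 and 0.767). Spread evenly by base over its exons, its mean of 254 counts would place 9.4 in the shared bases, beside 54 to 156 counts for CEACAM1. Read pairs that cover the shared bases only in part could also be counted. The figure of 9.4 is therefore a low one, and the number of such pairs was not estimated.

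SPC25, a kinetochore subunit gene whose span overlaps the 3′ part of NOSTRIN on the other strand, moved in the opposite direction. It was at 57.2, 63 and 61.8 CPM in NTC, 59, 59.6 and 60.6 CPM in crXCR1 and 43.5, 43.2 and 43.9 CPM in crSUGP1. The log2 difference was -0.48 ± 0.0532 against NTC (edgeR adjusted p = 0.00223) and -0.46 ± 0.0532 against crXCR1 (edgeR adjusted p = 0.00309), under the fold threshold. CERS6-AS1, which meets the 5′ end of NOSTRIN, differed by 0.25 and 0.30 (edgeR adjusted p = 0.367 and 0.222). MARK4, a kinase gene which contains EXOC3L2 on the opposite strand, differed by 0.16 and 0.08 (edgeR adjusted p = 0.551 and 0.743), and BLOC1S3 by 0.20 and 0.18 (edgeR adjusted p = 0.254 and 0.256). STPG1, opposite the 3′ part of GRHL3, differed by 0.21 and 0.18 (edgeR adjusted p = 0.47 and 0.45). GRHL3-AS1, LINC02800 and the ABHD3 partners AC106037.2 and AC106037.3 were below the filter. With the experiment as a block, the edgeR adjusted p was 0.0327 and 0.00914 for CERS6-AS1, 0.0442 and 0.259 for MARK4, 0.0356 and 0.0437 for BLOC1S3, and 0.0406 and 0.0574 for STPG1, all under the fold threshold.

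**Figure D3:**
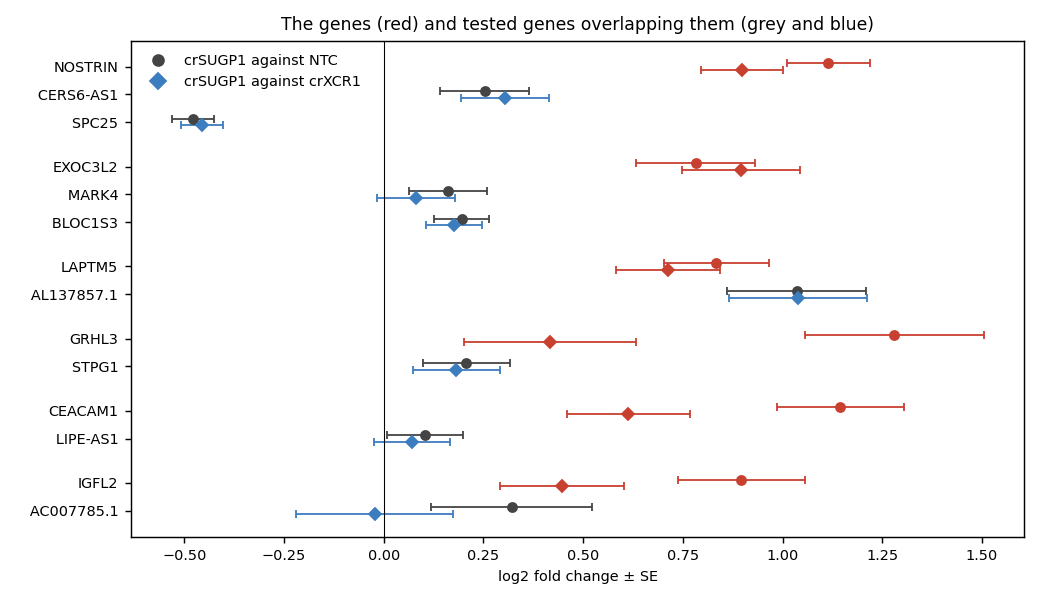
Log2 fold change ± SE of each gene (red) and of the tested genes that overlap it, against NTC (circles, grey for the overlapping genes) and crXCR1 (diamonds, blue for the overlapping genes). AL137857.1 has values near 1.04 in both comparisons, and SPC25 lies below 0.

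Among 127 tested genes within 500 kb of the 8 genes, 1 passed both thresholds in each comparison, 0.787% of the neighbours beside 0.783% and 0.774% of all tested genes. That share is near the background, and the gene is given as the called neighbour only. AC006262.2, a long non-coding RNA 2.59 kb from IGFL2 on the minus strand, was at 0.516, 0.663 and 0.564 CPM in NTC, 0.676, 0.67 and 0.716 CPM in crXCR1 and 1.23, 1.29 and 1.06 CPM in crSUGP1. It was higher by log2 1.05 ± 0.144 (edgeR adjusted p = 0.0078) and 0.80 ± 0.141 (edgeR adjusted p = 0.0313). With the experiment as a block, its edgeR adjusted p was 0.000154 against NTC and 0.000972 against crXCR1. In the fit without the block, the call against NTC was lost without NTC replicate 1, crSUGP1 replicate 2, experiment 1 or experiment 2 (adjusted p from 0.00212 to 0.519 over the 12 settings). Against crXCR1 it was kept without NTC replicate 2 or 3, crSUGP1 replicate 3 or experiment 3 and lost in the other 8 (from 0.00674 to 0.598). IGFL2-AS1, named here after its values were seen, differed by 0.77 (edgeR adjusted p = 0.0634) and 0.31 (edgeR adjusted p = 0.396), whereas AC007785.1, which spans IGFL2 on the same strand, differed by 0.32 and -0.02 (edgeR adjusted p = 0.562 and 0.972). With the experiment as a block, the edgeR adjusted p of IGFL2-AS1 was 5.49e-06 in the NTC comparison and 0.00598 in the crXCR1 comparison. In the block fit, 4 of the 127 neighbours passed both thresholds against NTC (3 higher, 1 lower), beside 2.85% of all tested genes. Against crXCR1 9 passed (2 higher, 7 lower), beside 3.9% of all tested genes.

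**Figure D4:**
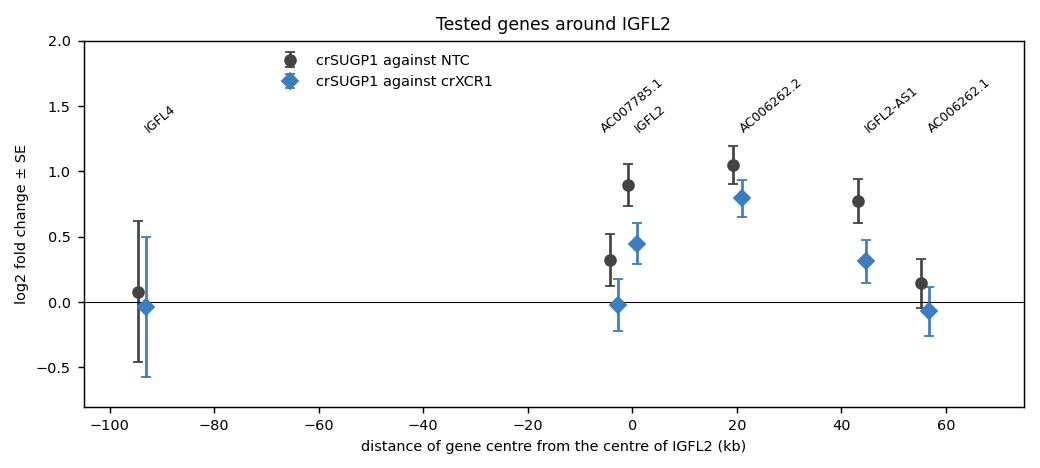
Log2 fold change ± SE of tested genes around IGFL2, by the distance of each gene centre from that of IGFL2 in kb. AC006262.2 and IGFL2-AS1, at 20.1 and 43.9 kb, have values of 1.05 and 0.77 against NTC, and IGFL4, at -93.8 kb, has 0.08.

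Relatives of the 8 genes were listed by family and pathway. Of 135 listed genes 109 were tested, and none passed both thresholds against NTC, beside 0.783% of all tested genes (edgeR). DESeq2 called 1 of them and 1.14% of all tested genes. At an unadjusted edgeR p under 0.05 were 18 of them against NTC and 22 against crXCR1. The matching share of all tested genes is not given, so these counts are not read against a background. Against crXCR1 TGM1 alone passed, 0.917% of the 109 genes beside 0.774% of all tested genes. TGM1, a transglutaminase of the grainyhead target list, was lower by log2 -0.72 ± 0.122 (edgeR adjusted p = 0.0255). It was called in 4 of 12 settings that left out 1 library or 1 experiment. These were without any 1 NTC library or without experiment 3 (adjusted p from 0.00162 to 0.569 over the 12). DESeq2 called 2 related genes against crXCR1 and 1.27% of all tested genes. The median over the 109 genes was 0.026 against NTC and 0.017 against crXCR1. With the experiment as a block, TGM1 also passed against NTC, and PACSIN1, PSG4, PSG5 and TGM1 were lower against crXCR1, so that 1 and 4 genes passed (the first 3 were named after their values were seen). In the block fit 2.85% of all tested genes passed against NTC and 3.9% against crXCR1. Neither count of related genes is above that share of 109 genes.

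None of the closest relatives named here was called in either comparison. TNFAIP2, of the EXOC3-like family, differed by 0.35 and 0.31 (edgeR adjusted p = 0.0897 and 0.118), and was higher within every experiment. With the experiment as a block its edgeR adjusted p was 0.000454 and 0.00105, and with DESeq2 it was 0.00922 and 0.0239, still under the fold threshold. EXOC3L1 differed by 0.16 and 0.05. LAPTM4A and LAPTM4B, ubiquitous relatives of LAPTM5, differed by 0.04 and -0.02 against NTC. KATNA1, the catalytic subunit of katanin, differed by 0.20 and GRHL1 by 0.23 (edgeR adjusted p = 0.296), while GRHL2 was below the filter. IGFL4 differed by 0.08 ± 0.537, with its experiment 3 libraries the highest in every group, and IGFL1 and IGFL3 were below the filter. CEACAM19 differed by -0.12, ABHD1 by 0.16 and ABHD2 by -0.04. With the block, the edgeR adjusted p was also under the threshold for KATNA1 against NTC (0.0196) and LAPTM4A against crXCR1 (0.0485), with log2 differences of 0.20 and 0.15. IGFLR1, a receptor for IGFL proteins, differed by -0.28 and -0.37 (edgeR adjusted p = 0.458 and 0.25, with the block 0.0396 and 0.0066).

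**Figure D5:**
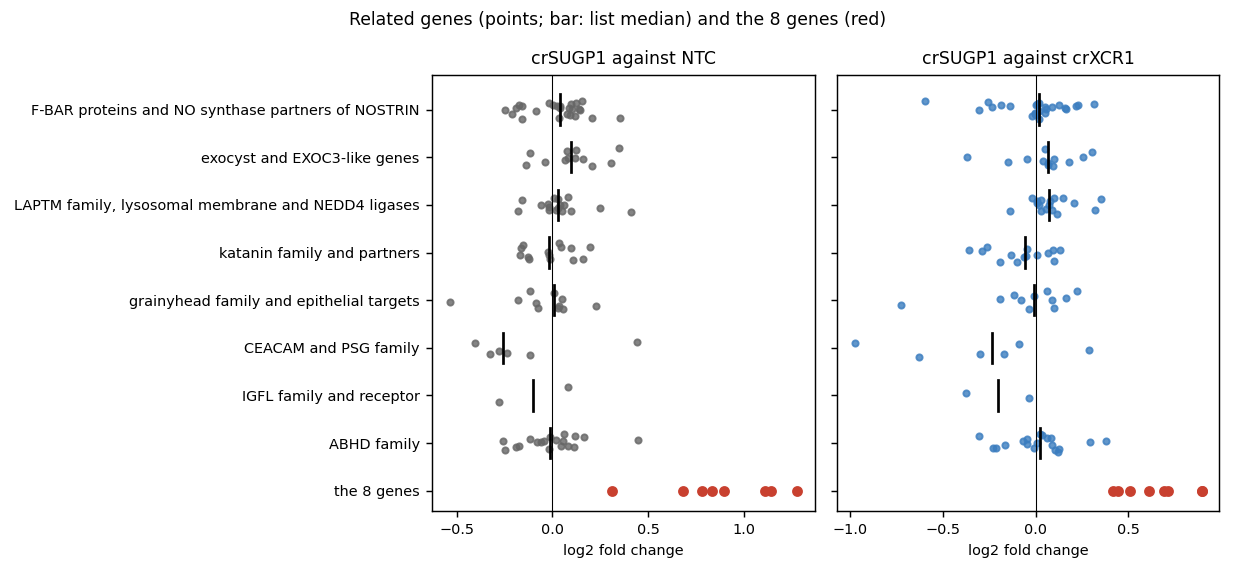
Log2 fold change of the tested genes of each related list (points, black bar for the median, vertical scatter for display only) and of the 8 genes (red). The list medians furthest from 0 are those of the CEACAM and PSG family (6 tested genes, -0.259 against NTC and -0.235 against crXCR1) and of the IGFL family (2 tested genes, -0.101 and -0.205).

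Markers of the cell types in which LAPTM5, NOSTRIN and GRHL3 are best known were set beside these results. None of 40 tested markers of blood, endothelial, epithelial and bone cells passed both thresholds in either comparison (edgeR, 0 and 1 at an unadjusted p under 0.05, DESeq2 called 0 in both). Of all tested genes, 0.783% and 0.774% passed in edgeR and 1.14% and 1.27% in DESeq2. With 40 markers, a count of 0 is near these shares. Of 16 blood markers, CD3E was at 0 in every library, and the summed level was 59.8 to 86.6 CPM in NTC, 58.2 to 80 in crXCR1 and 63.4 to 92.9 in crSUGP1. The 12 endothelial markers summed to 20.5 to 25.2, 19.9 to 25.2 and 18.6 to 22.6 CPM. The 16 epithelial markers summed to 1800 to 1960, 1830 to 2010 and 1800 to 2140 CPM, with LCE3D at 0. The 11 bone markers summed to 4230 to 4690, 4270 to 4560 and 3970 to 4210 CPM, so that all crSUGP1 sums lay below all control sums. Of the 8 tested bone markers, 7 were lower and 1 higher against NTC, and 6 were lower and 2 higher against crXCR1. Of all tested genes, 49% and 49.2% were higher. Among the bone markers RUNX2 was at 16.9 to 27.5 CPM, whereas SP7 and IBSP were at or near 0. Whether such cells had a part in the values of the 8 genes was not tested. With the block, 1 marker, VWF, also named after its values were seen, was lower against crXCR1, beside 3.9% of all tested genes called in that fit.

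Promoter windows of 300 bases, 250 before and 50 after the RefSeq start (GRCh38.p14), were available for all 8 genes, 10 windows in all. Their base composition was mixed, from 37% to 73% G and C against a median of 58.7% over 34943 windows. The GC box GGGCGG, searched like all motifs on both strands, was in windows of 6 genes and in 44.9% of all windows. The TATA box TATAAA was in the window of IGFL2 alone and in 11.6% of all. The CCAAT box and the grainyhead core AACCGG were each in a window of GRHL3 alone (34.6% and 7.22% of all), and neither CACGTG nor TGANTCA was in any of the 10 (7.23% and 7.72% of all). The windows of IGFL2 and KATNBL1 show this contrast, with TATAAA and GGGCGG in capitals. The TATAAA starts 16 bases before the start of IGFL2, and the 3 GC boxes of KATNBL1 start 46, 30 and 14 bases before its start. They lie at chr19:46147988-46148287 (plus strand) and chr15:34210047-34210346 (minus strand).
IGFL2 promoter: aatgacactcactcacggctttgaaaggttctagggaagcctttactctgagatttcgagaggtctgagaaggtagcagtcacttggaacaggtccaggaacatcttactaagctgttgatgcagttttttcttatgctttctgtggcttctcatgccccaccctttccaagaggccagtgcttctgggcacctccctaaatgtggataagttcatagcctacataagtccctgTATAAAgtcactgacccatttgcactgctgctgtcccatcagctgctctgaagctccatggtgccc
KATNBL1 promoter: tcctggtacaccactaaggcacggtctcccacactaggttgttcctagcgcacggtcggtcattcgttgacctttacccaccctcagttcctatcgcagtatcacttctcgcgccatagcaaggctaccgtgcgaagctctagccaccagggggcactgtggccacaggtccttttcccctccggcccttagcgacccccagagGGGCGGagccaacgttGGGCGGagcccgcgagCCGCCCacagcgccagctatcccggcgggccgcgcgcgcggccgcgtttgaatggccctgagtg

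For each gene, the genes most like it in log2 CPM over the 9 libraries were sought among 16791 genes, as a description in which the points share library depth and guide group. NOSTRIN was closest to ACER2 among coding genes (Pearson r = 0.985) and AC022400.6 overall (0.993). KATNBL1 was closest to TFG (0.992) and UQCC1 (0.99), EXOC3L2 to TERF2IP (0.985) and ITGA3 (0.983), and ABHD3 to NCK1 (0.981) and EAF1 (0.971). CEACAM1 was closest to TBC1D2 (0.98) and MDM2 (0.97), GRHL3 to ACTA2-AS1 (0.981) and SULF2 (0.968), and LAPTM5 to EEF1G and AP002990.1 (0.972 each). IGFL2 had the lowest values, 0.95 with AC005324.2 and 0.945 with AC096677.2. Among the 8 genes themselves, deviations from the group means correlated from -0.844 to 0.855 over 28 pairs, with a median of -0.101.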

How the data were processed

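The 9 libraries of polyA RNA covered 3 guides in 3 independent experiments with U-2 OS cells. Per the study's methods and the submitters' processing notes, the authors trimmed paired reads, aligned them with STAR to GRCh38 and used SeqMonk to count the pairs falling on exons, gene by gene. The deposited values are raw counts, with no normalization, and the strand setting is not given in the sources used here. Of 38179 rows, 38146 remained after rows that repeated a gene name with no counts or identical counts were dropped.

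A gene was tested where any library exceeded -2 on the log2 CPM scale, and the 21071 such genes were fitted over all 9 libraries with edgeR 4.0.16 (quasi-likelihood test, TMM scaling, group as the only term, with experiment added to compare experiments), with R 4.3.3, and called at a Benjamini-Hochberg adjusted p of 0.05 and a log2 fold of 0.5. The script was tested on simulated data. DESeq2 1.42.0, other scaling and filters, fewer libraries and a replicate block were alternatives. Replicate numbers were taken as the experiments of the study, which the sample titles do not state. Deviations of same-numbered libraries correlated from 0.483 to 0.893 (9 pairs, 16792 genes), and those of others from -0.843 to 0.642, so the ranges overlap. Between experiments 1 and 2, 0.0332% of tested genes were called, so telling those apart rests mainly on the number. Replicates differed by more than sampling noise (chi-square per degree of freedom 6.1 to 59.7).

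The members and all lists were chosen with earlier results of these data known. Named genes are the 8 members, tabled genes overlapping them, called genes of the lists (up to 4 per list and comparison), closest relatives, called neighbours within 500 kb and the 2 genes most correlated with each member among those with a mean of at least 1 CPM. The 8 related lists cover F-BAR and nitric oxide synthase partners, exocyst, LAPTM and lysosomal membrane, katanin, grainyhead, CEACAM and PSG, IGFL and ABHD genes. Some listed genes are not reported here. Exons are from GENCODE v44.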

Additional observations from a re-analysis of the deposited data

How the results depend on the processing

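All 290 recomputed differences of the 8 genes kept their direction and 283 stayed within the spread between experiments. The genes were selected for this rise, and their crSUGP1 libraries all lay above the control libraries. Leaving libraries out could therefore hardly reverse a direction, and some settings left out a library of a group not compared. The count of kept directions is thus no test of stability. The median over the 8 genes ranged from 0.82 to 0.95 against NTC and from 0.57 to 0.68 against crXCR1 with 1 library or experiment left out, the lowest of the latter without crXCR1 replicate 3. Calls of other genes changed between settings, as given below, and the cause was not tested. The 8 genes were followed by their differences and not by calls, so their stability is not compared with that of those calls.

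With no fold threshold, 1 related gene and 2 overlapping genes passed against NTC and 2 overlapping genes against crXCR1. Between experiment 3 and the others, 3 of the 8 genes then passed, beside 46.1% of all tested genes. A window of 1000 kb gave 2 neighbours in each comparison. DESeq2 called 1 related gene and 3 neighbours against NTC, and 2 and 2 against crXCR1. With the 6 libraries of the groups compared, 0 overlapping genes passed against NTC and 0 neighbours against crXCR1. With the replicate block, which pairs libraries by experiment, 1 related gene and 4 neighbours passed against NTC, and 4 related genes, 1 marker and 9 neighbours against crXCR1, with no other count changed. The block fit called 2.85% and 3.9% of all tested genes in these comparisons.

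With 1 library or experiment left out, the counts against NTC ranged from 0 to 1 for related genes, markers and overlapping genes and from 0 to 4 for neighbours. Against crXCR1 they ranged from 0 to 3 for related genes, 0 to 2 for markers, and 0 to 1 for overlapping genes and for neighbours. Between experiment 3 and the others, 0 to 1 of the 8 genes passed, beside 10.6% of all tested genes with all libraries. The lowest counts per library were those of GRHL3 (52 to 215), CEACAM1 (54 to 156) and IGFL2 (58 to 175), which limits the precision of their differences.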
